A study of Rattus norvegicus with 22 samples.

Results

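The homeostatic genes of microglia are those that the resident macrophages of the brain and spinal cord transcribe while the tissue is undisturbed. They are described here by 9 genes chosen by name, P2ry12, P2ry13, Tmem119, Gpr34, Selplg, Olfml3, Cx3cr1, Csf1r and Sall1. Every transcript annotated with 1 of these symbols was taken, and each gene had 1 transcript, which makes 9 of the 23188 transcripts in the table. The symbol of Selplg came through the accession in the study's lists of changed genes, and those of the other 8 genes from the annotation of the array. Selplg was thus named only because the study had called it as changed, so that its call after SCI without TMX was fixed in advance.

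Spinal cord RNA was measured in 22 adult male Long-Evans rats, with 1 Clariom S array per rat, in the groups Sham/TMX- (n = 5), Sham/TMX+ (n = 6), SCI/TMX- (n = 5) and SCI/TMX+ (n = 6). In the SCI groups a laminectomy at T9 exposed the dural sac, and a 10 g rod dropped from 50 mm bruised the cord. Sham rats had only soft tissue surgery, so that the laminectomy and the contusion cannot be told apart. Tamoxifen (TMX), a selective estrogen receptor modulator, was injected intraperitoneally at 5 mg/kg in the TMX+ groups 30 min after surgery, and the TMX- groups received only ethyl alcohol with corn oil, which is the vehicle. All rats had ketamine and xylazine anesthesia and tramadol, and a 20 mm piece of cord around the injury, or its equivalent in sham rats, was taken at 24 h. Of 6 rats per group at the start, 1 of Sham/TMX- and 1 of SCI/TMX- were left out by the study for poor RNA, and the RNA integrity number of the others was at least 7.

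Values are log2 signals, in which the brightness of 1 probe set cannot be set against that of another, so each gene is compared with itself across groups. The medians of the 22 arrays lay between 5.41 and 5.47. Animals 13c (SCI/TMX- replicate 1) and 15c (SCI/TMX- replicate 2) stood apart from the other 3 rats of their group on the second principal component, which holds 8.45% of the variance, and values of the 9 genes that lean on them are also given without them. Markers of cord tissue were present, with the mean log2 signal of the measured oligodendrocyte genes between 10.0 and 10.6 and that of the neuronal genes between 8.81 and 9.52 over all rats. Precision is limited by the 5 or 6 arrays of a group.

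Microglia survey the cord with moving processes and keep a characteristic set of surface receptors while doing so. Work in mice has shown that much of this set is reduced when microglia respond to injury. Among the 9 genes, P2ry12 and P2ry13 encode receptors for ADP, which steer the processes of microglia toward damaged cells, and Gpr34 encodes a receptor for lysophosphatidylserine. Cx3cr1 encodes the receptor for fractalkine, a ligand made by neurons, and Csf1r the receptor for CSF1 and interleukin 34, on which the survival of microglia depends. Selplg encodes PSGL-1, the ligand of P-selectin. Selplg, Cx3cr1 and Csf1r are also expressed by monocytes in blood. Tmem119 encodes a membrane protein used as a marker of microglia, Olfml3 a secreted protein of the olfactomedin family, and Sall1 a zinc finger transcription factor that maintains the identity of microglia in mice.

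P2ry13 and P2ry12 are neighbors on rat chromosome 2 in the RefSeq annotation, with 0 genes between them, and both lie within the span of Med12l. Selplg and Tmem119 are both on chromosome 12, with 1 gene, LOC108352466, between them. RefSeq promoter windows of assembly GRCr8, 250 bases before to 50 bases after the annotated start, were at hand for 5 of the 9 genes, namely P2ry13, Gpr34, Olfml3, Cx3cr1 and Csf1r. For P2ry13 and Csf1r the 50 bases after the annotated start begin with ATG, the letters of a start codon. These 2 starts may thus be those of the coding sequence and not of transcription, and the windows need not hold the promoter. The windows of Gpr34 (chrX:11785787-11786086, minus strand) and P2ry13 (chr2:145622735-145623034, minus strand) are shown because these genes fell the most of the 5 after SCI. That of Csf1r (chr18:56834129-56834428, plus strand) is shown for a gene whose difference did not pass the test. This held for Olfml3 too, whose window is not shown. Capitals mark motif matches.
Gpr34: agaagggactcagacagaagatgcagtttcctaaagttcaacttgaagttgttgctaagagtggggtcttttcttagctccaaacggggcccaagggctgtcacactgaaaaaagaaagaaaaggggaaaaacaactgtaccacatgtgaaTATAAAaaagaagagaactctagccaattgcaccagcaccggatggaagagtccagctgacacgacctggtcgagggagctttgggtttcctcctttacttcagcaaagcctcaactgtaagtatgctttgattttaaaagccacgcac
P2ry13: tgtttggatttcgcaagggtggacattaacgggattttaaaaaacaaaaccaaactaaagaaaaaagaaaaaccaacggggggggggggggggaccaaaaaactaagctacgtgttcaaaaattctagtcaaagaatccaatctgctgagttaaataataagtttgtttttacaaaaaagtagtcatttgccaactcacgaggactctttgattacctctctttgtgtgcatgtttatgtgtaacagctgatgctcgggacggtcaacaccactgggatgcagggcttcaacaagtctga
Csf1r: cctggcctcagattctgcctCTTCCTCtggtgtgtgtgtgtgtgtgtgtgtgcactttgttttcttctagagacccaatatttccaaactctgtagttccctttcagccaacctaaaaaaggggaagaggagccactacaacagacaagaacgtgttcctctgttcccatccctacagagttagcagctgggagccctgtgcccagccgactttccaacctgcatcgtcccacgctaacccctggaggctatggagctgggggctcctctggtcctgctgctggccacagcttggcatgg
Both strands of the 5 windows were searched for GAGGAAG, a form of the site recognized by the myeloid factor PU.1, and for TATAAA, the TATA box. Also searched was the composite element of PU.1 and IRF factors, which is GGAA followed after 2 bases by GAAA. Other forms of the PU.1 site were not searched, so a window without a match may still hold such a site. Gpr34 held TATAAA at bases -99 to -94 from its start, as did 14.2% of the 33469 windows of the rat table. Csf1r held the reverse complement of GAGGAAG at bases -230 to -224, and 12.4% of all windows hold this motif on either strand. None of the 5 windows held the composite element, which 2.94% of all windows contain, and the 2 matches did not overlap another motif. A match is a description of the letters and not of a bound site.

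The response of the 9 genes to SCI was first measured in rats given vehicle, as SCI/TMX- minus Sham/TMX-. Of the 9 genes, 7 fell at an adjusted p under 0.05 and 0 rose, whereas 17.8% of all 23188 transcripts fell by this rule. With the further requirement of the methods, a log2 difference beyond 1, 4 of the 9 were called (Gpr34, Selplg, P2ry13 and P2ry12), against 1.07% of all transcripts called as lower. Leaving out 13c and 15c, 6 fell and 3 were called. The median log2 difference of the 9 genes was -0.64, where that of all transcripts was -0.01. In 6 of the 9 genes every SCI/TMX- rat lay below every Sham/TMX- rat, which held for 12% of all transcripts in this direction. Selplg, which was named through the study's lists of changed genes, is in each of these counts and lends them no support of its own. In RNA from whole cord, fewer microglia and less of each RNA per microglial cell cannot be told apart.

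The largest fall of the 9 was that of the lysophosphatidylserine receptor gene Gpr34. Its log2 signals were 7.05, 6.52, 6.44, 6.70 and 7.13 in the 5 Sham/TMX- rats and 4.89, 4.58, 5.40, 5.26 and 5.01 in the 5 SCI/TMX- rats. The lowest sham rat thus lay more than a whole log2 unit above the highest injured rat, and the groups did not overlap. The means were 6.77 ± 0.309 and 5.03 ± 0.321 (SD, n = 5 each), a log2 difference of -1.74 (standard error 0.15, adjusted p = 2.37e-09 by limma), or 3.34-fold lower.

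Selplg, whose product binds P-selectin, followed closely. Sham/TMX- rats had log2 signals of 9.44, 9.12, 9.45, 9.39 and 9.65, and SCI/TMX- rats had 7.70, 7.37, 7.91, 7.98 and 8.05. No injured rat came near the sham range, and animal 15c was the lowest. The log2 difference was -1.61 (standard error 0.12, adjusted p = 3.04e-10), a 3.05-fold lower level. Since Selplg was named through the study's lists of changed genes, that it passed here was fixed in advance.

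The ADP receptor genes P2ry13 and P2ry12 also fell. P2ry13 had log2 signals of 7.24, 6.75, 6.76, 7.00 and 7.63 in Sham/TMX- and of 5.80, 5.13, 6.07, 5.97 and 6.04 in SCI/TMX-, a difference of -1.27 (standard error 0.18, adjusted p = 5e-06). For P2ry12 the signals were 7.27, 6.92, 6.84, 7.07 and 7.28 in Sham/TMX- and 5.83, 5.35, 6.53, 6.42 and 6.25 in SCI/TMX-. Here the injured rats spread widely, with 15c and 13c the lowest, and still lay below all sham rats. On the log2 scale P2ry12 fell by 1.00 (standard error 0.16, adjusted p = 2.1e-05), which sits at the required minimum of 1. It was -0.68 without 13c and 15c (adjusted p = 0.000172) and was no longer called, whereas Gpr34 at -1.55, Selplg at -1.43 and P2ry13 at -1.05 still were.

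Of the other 5 genes, Tmem119, Sall1 and Cx3cr1 fell by smaller amounts. The marker gene Tmem119 had log2 signals of 5.47, 5.67, 5.90, 6.12 and 5.64 in Sham/TMX- and of 5.22, 5.39, 4.88, 5.01 and 5.10 in SCI/TMX-, a difference of -0.64 (standard error 0.12, adjusted p = 0.000138). The groups did not overlap, and 15c, the lowest rat of its group for Gpr34, Selplg, P2ry12 and P2ry13, was here the highest. Its mean over the arrays lay under the median signal of all transcripts. Sall1, the transcription factor gene, was tightly grouped from 7.38 to 7.51 in Sham/TMX- and ranged from 6.68 to 7.38 in SCI/TMX-, a difference of -0.46 (standard error 0.12, adjusted p = 0.00327). The groups overlapped through 13c, whose value of 7.38 reached the sham range. The fractalkine receptor gene Cx3cr1 ranged from 7.05 to 7.64 in Sham/TMX- and from 6.69 to 7.00 in SCI/TMX-, a difference of -0.39 (standard error 0.11, adjusted p = 0.00545). It was -0.29 without 13c and 15c, with an adjusted p of 0.0723.

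For the remaining genes, Csf1r and Olfml3, the difference did not pass the adjusted threshold. The CSF1 receptor gene Csf1r ranged from 7.08 to 7.53 in Sham/TMX- and from 6.65 to 7.28 in SCI/TMX-, and the ranges overlapped (difference -0.29, 95% interval from -0.53 to -0.05, adjusted p = 0.0638). With 13c and 15c left out the difference of Csf1r was -0.12 (adjusted p = 0.507). Olfml3, which encodes a secreted protein, had log2 signals of 5.35, 4.87, 5.49, 4.88 and 5.67 in Sham/TMX- and of 5.45, 4.94, 5.38, 5.61 and 5.04 in SCI/TMX-. These ranges nearly coincided, with a difference of 0.03 (95% interval from -0.37 to 0.43, adjusted p = 0.932).

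**Figure D1:**
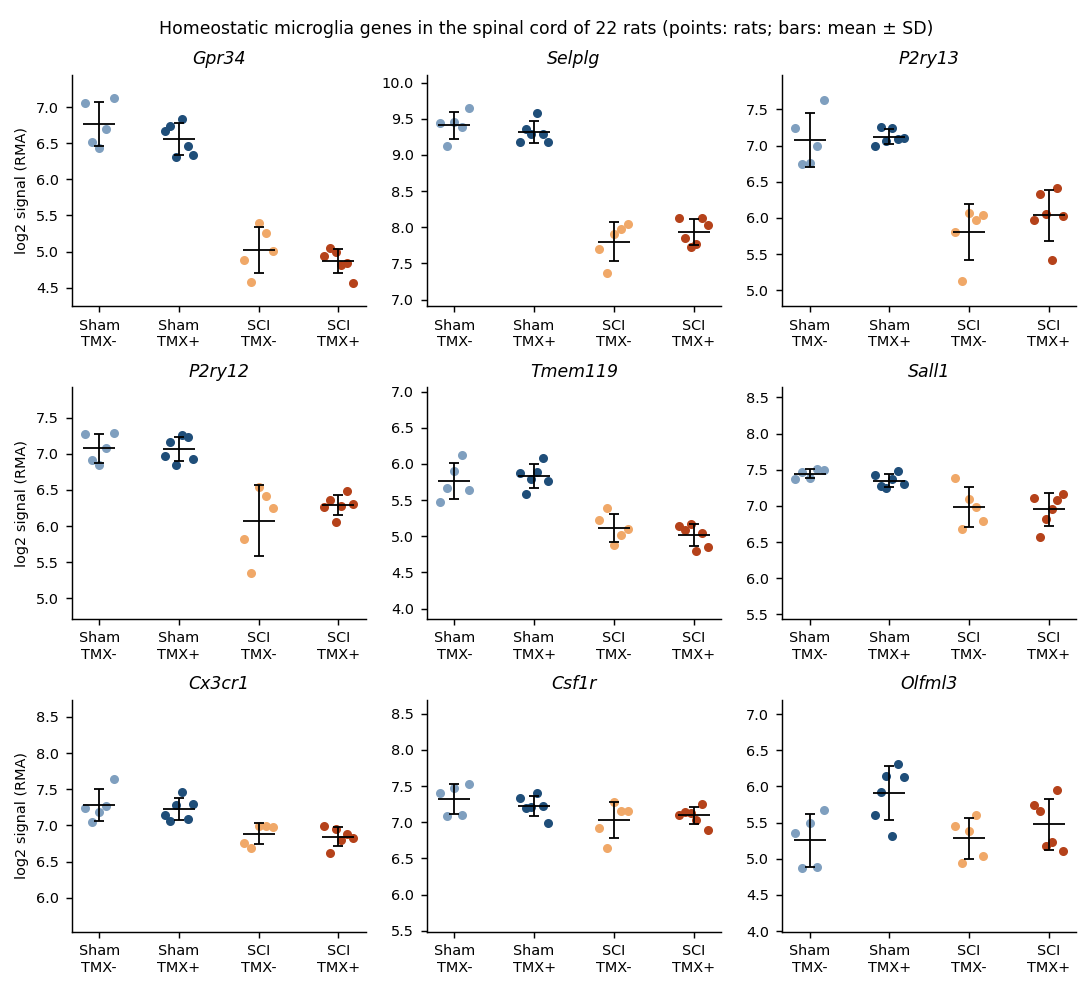
Log2 signal (vertical axis, RMA values) of each of the 9 genes in the 4 groups, with 1 point per rat and bars for the mean ± SD. Gpr34 and Selplg separate all SCI rats from all sham rats by the widest gaps, whereas the groups of Csf1r and Olfml3 overlap.

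The same comparison in rats that had received TMX, SCI/TMX+ against Sham/TMX+, used other animals. Here too 7 of the 9 genes fell at an adjusted p under 0.05 and 0 rose, where 19.7% of all transcripts fell. Gpr34, Selplg and P2ry13 also passed the log2 minimum, which 1.11% of all transcripts did as lower. The median log2 difference of the 9 genes was -0.77 against -0.02 for all transcripts, and 7 genes had SCI rats wholly below sham rats (11.7% of all transcripts).

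Gpr34 ran from 6.31 to 6.84 with a median of 6.57 in Sham/TMX+, and from 4.57 to 5.06 with a median of 4.89 in SCI/TMX+. The groups lay wide apart, with a log2 difference of -1.69 (standard error 0.14, adjusted p = 5.54e-10), or 3.22-fold lower. Selplg ran from 9.18 to 9.58 (median 9.29) in Sham/TMX+ and from 7.72 to 8.13 (median 7.94) in SCI/TMX+, a difference of -1.38 (standard error 0.11, adjusted p = 6.01e-10). For P2ry13 the sham range of 6.99 to 7.26 (median 7.10) was narrow, and that of SCI/TMX+ was 5.42 to 6.42 (median 6.04). Animal 7b (SCI/TMX+ replicate 1) was the lowest of these, well under the other 5. The difference of P2ry13 was -1.09 (standard error 0.17, adjusted p = 9.51e-06), and without 7b it was -0.96, short of the minimum.

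P2ry12 ran from 6.85 to 7.26 (median 7.06) in Sham/TMX+ and from 6.05 to 6.49 (median 6.29) in SCI/TMX+, a difference of -0.77 (standard error 0.15, adjusted p = 0.000133). The 6 injured rats lay close together here, with an SD of 0.144, whereas the SD in SCI/TMX- was 0.486, and 0.144 for the 3 rats other than 13c and 15c. Tmem119 ran from 5.58 to 6.08 (median 5.83) in Sham/TMX+ and from 4.80 to 5.16 (median 5.07) in SCI/TMX+, without overlap (difference -0.81, standard error 0.11, adjusted p = 1.49e-06). Sall1 (-0.40, standard error 0.11, adjusted p = 0.00428) and Cx3cr1 (-0.38, standard error 0.10, adjusted p = 0.00318) fell and their groups did not overlap. Csf1r did not pass (-0.13, 95% interval from -0.35 to 0.09, adjusted p = 0.38). Olfml3 ran from 5.32 to 6.31 (median 6.03) in Sham/TMX+ and from 5.11 to 5.95 (median 5.44) in SCI/TMX+, a difference of -0.43 (95% interval from -0.80 to -0.06, adjusted p = 0.0684) between overlapping groups.

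**Figure D2:**
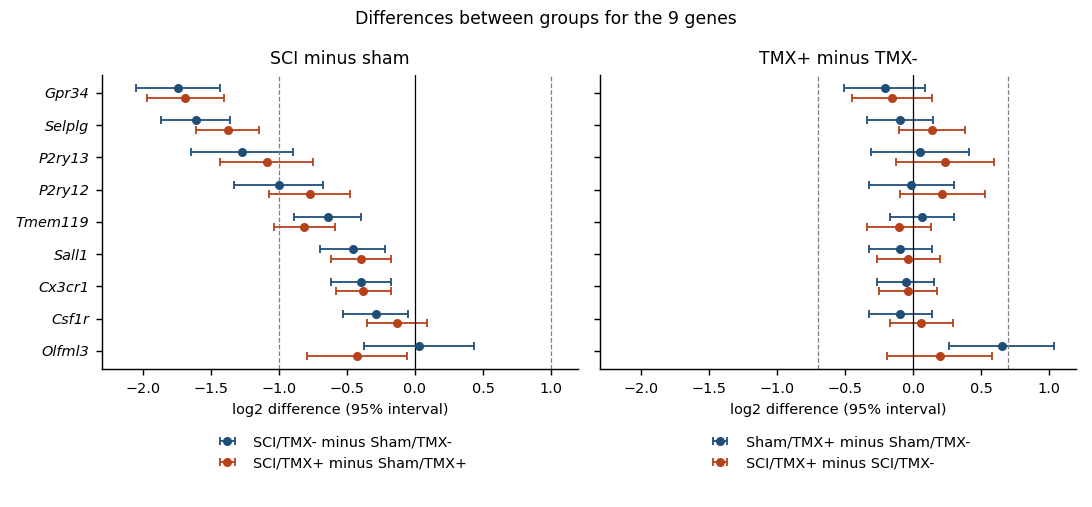
Log2 differences of the 9 genes (horizontal axis) with 95% intervals, for SCI minus sham on the left and TMX+ minus TMX- on the right. Dashed lines mark the minimum log2 difference of the methods, 1 for SCI and 0.7 for TMX, and the intervals of Gpr34 and Selplg lie beyond the line in both SCI comparisons while all TMX values lie within theirs.

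To ask which of the 9 genes fell by unequal amounts, the difference between the log2 signals of 2 genes was taken within each array and compared between SCI and sham rats. The 36 pairs of genes gave 72 exact two-sided permutation tests over the 2 treatments, and 46 of them had a Benjamini-Hochberg adjusted p under 0.05. These were 22 pairs without TMX and 24 with TMX, and 20 pairs passed in both. The smallest p that these exact tests allow is 0.00794 for 5 against 5 rats and 0.00216 for 6 against 6. The falls compared are those of array signals, and the processing of the arrays compresses differences of dim transcripts. In Sham/TMX- the mean log2 signal was 5.76 for Tmem119 and 5.25 for Olfml3, against 9.41 for Selplg. A smaller fall of the signal need not be a smaller fall of the RNA, which was not tested.

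Gpr34 and Selplg fell by more than Cx3cr1, Csf1r, Sall1, Olfml3, Tmem119 and P2ry12 in both treatments. Their own falls were not shown to differ, with Gpr34 lower by a further -0.13 without TMX (exact permutation test, p = 0.341, adjusted p = 0.378) and by -0.31 with TMX (exact p = 0.0541, adjusted p = 0.0779). The fall of P2ry12 was smaller than that of Gpr34 by 0.74 without TMX (exact permutation test, adjusted p = 0.0147) and by 0.91 with TMX (exact permutation test, adjusted p = 0.00974). Between the neighboring ADP receptor genes, P2ry12 fell by less than P2ry13 by 0.31 with TMX (exact permutation test, adjusted p = 0.0407), and the value of 0.27 without TMX did not pass (exact permutation test, adjusted p = 0.0863). P2ry13 and Selplg were not told apart in either treatment, with differences of 0.34 (exact permutation test, adjusted p = 0.0608) and 0.29 (exact permutation test, adjusted p = 0.102). The pairs of Selplg without TMX use the rats in which the study had already called Selplg as changed, so they are no independent result on the size of its fall.

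At the other end, no pair among Cx3cr1, Csf1r and Sall1 was shown to differ, with differences from -0.25 to 0.27 and the smallest adjusted p at 0.0649 (exact permutation tests). Tmem119 fell by more than each of these 3 genes with TMX, by -0.44 against Cx3cr1 (adjusted p = 0.0147), by -0.68 against Csf1r (adjusted p = 0.00974) and by -0.42 against Sall1 (adjusted p = 0.0319, all exact permutation tests). Without TMX the corresponding values for Tmem119 were -0.25, -0.36 and -0.19, and none passed (adjusted p from 0.257 to 0.401, exact permutation tests). Olfml3, which passed in neither comparison, differed in its change from Sall1 without TMX, by 0.49 (exact permutation test, adjusted p = 0.0381).

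In uninjured cord, the effect of TMX on the 9 genes was read from the difference between the Sham/TMX+ and Sham/TMX- rats. By the rule of the methods, an unadjusted p under 0.05 and a log2 difference beyond 0.7, 0 of the 9 genes were called, and 0.0302% of all transcripts were. An unadjusted p under 0.05 alone was reached by Olfml3, 1 of the 9 genes, where 5.46% of all transcripts reached it. Olfml3 had values of 5.61, 5.92, 6.14, 5.32, 6.31 and 6.13 in the 6 Sham/TMX+ rats, against 4.87 to 5.67 in Sham/TMX-. Of the 6 rats, 4 lay above all Sham/TMX- rats, and the groups overlapped through 19d and 22d. The log2 difference of Olfml3 was 0.65 (standard error 0.19, 95% interval from 0.26 to 1.04), with an adjusted p of 0.622 by limma over all transcripts. Leaving out 1 rat at a time moved this value between 0.56 and 0.77, past the minimum of 0.7 without 4a, 6a, 19d or 22d. The other 8 genes had differences between -0.21 (Gpr34, 95% interval from -0.50 to 0.09) and 0.07 (Tmem119, 95% interval from -0.17 to 0.30), with adjusted p from 0.962 to 0.999 by limma.

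In injured cord, SCI/TMX+ was compared with SCI/TMX-, and 0 of the 9 genes were called, where 0.129% of all transcripts were. Over all rats none of the 9 reached an unadjusted p under 0.05 either, which 10.4% of all transcripts did. P2ry13 and P2ry12 had the highest differences, 0.23 (95% interval from -0.12 to 0.59) and 0.22 (95% interval from -0.10 to 0.53), and Gpr34 the lowest, -0.16 (95% interval from -0.45 to 0.14). Selplg differed by 0.14 (95% interval from -0.11 to 0.38) and Tmem119 by -0.11 (95% interval from -0.34 to 0.13). Several of these signs rest on 13c and 15c. With both left out, P2ry12 was at -0.11, P2ry13 at 0.01, Selplg at -0.04, Csf1r at -0.11 and Tmem119 at 0.02, and 4 of the 9 genes had another sign than over all rats. Gpr34 was then at -0.35, past an unadjusted p of 0.05 but with an adjusted p of 0.466 by limma and short of the minimum of 0.7, so that 0 genes were called either way. The intervals of all 9 genes hold 0 and lie between -0.45 and 0.59, and the adjusted p ran from 0.657 to 0.947 by limma. The groups overlapped in all 9 genes, and were apart for 0.785% of all transcripts.

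An interaction, defined as the TMX difference in SCI rats minus that in sham rats, passed an adjusted p under 0.05 for 0 of the 9 genes and for 0 of the 23188 transcripts with limma. At an unadjusted p under 0.05 it passed for 6.84% of all transcripts and for none of the 9. Olfml3 had the smallest p of the 9, with an interaction of -0.46 (standard error 0.27, adjusted p = 0.783 by limma). Its 2 SCI differences, 0.03 without TMX and -0.43 with TMX, were therefore not shown to differ. The remaining interactions ran from -0.17 (Tmem119) to 0.23 (Selplg). Leaving out 13c and 15c turned the sign of 5 of the 9 interactions, which then ran from -0.52 (Olfml3) to 0.09 (Sall1), and called 0. The sham rats of each treatment enter both the SCI difference and the TMX difference, so that these are not independent of each other.

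Genes that act with the 9 were then examined in lists of other genes. Of 10 ligands and related receptors, 4 rose and 1 fell without TMX, and 5 rose and 2 fell with TMX, at an adjusted p under 0.05. Of all transcripts, 12.8% rose and 17.8% fell without TMX, and 14.3% rose and 19.7% fell with TMX. The same shares apply to the lists that follow. The gene that fell in both was Cx3cl1, which encodes fractalkine, the ligand of the Cx3cr1 receptor. Its mean log2 signal was 7.38 ± 0.182 in Sham/TMX- (SD, n = 5) and 6.61 ± 0.132 in SCI/TMX- (SD, n = 5), a difference of -0.77 (adjusted p = 5.33e-07), and the difference with TMX was -0.70 (adjusted p = 4.49e-07). Of the ligands of the Csf1r receptor, Csf1 rose by 0.41 without TMX (adjusted p = 0.00134) and by 0.31 with TMX (adjusted p = 0.00557), whereas Il34 had differences of -0.10 and -0.08 that did not pass (adjusted p = 0.56 and 0.629). Selp, which encodes the P-selectin bound by PSGL-1, had differences of 0.35 and 0.11 that did not pass (adjusted p = 0.126 and 0.651). With 13c and 15c left out, 6 genes of this list rose and 1 fell without TMX, and Selp passed at 0.55 (adjusted p = 0.021).

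Other purinergic receptor genes moved in both directions. P2ry6, which encodes a receptor for UDP, rose by 0.61 without TMX (adjusted p = 8.49e-05) and by 0.49 with TMX (adjusted p = 0.000261). P2rx4, an ATP-gated channel gene, rose by 0.59 and 0.32 (adjusted p = 1.76e-05 and 0.00427). P2rx7, another ATP-gated channel gene, had -0.28 without TMX (adjusted p = 0.155) and fell by 0.64 with TMX (adjusted p = 0.00034). Its mean log2 signals were close in SCI/TMX- (6.12) and SCI/TMX+ (6.10), and lay at 6.40 in Sham/TMX- and 6.74 in Sham/TMX+. P2ry14, which encodes a receptor for UDP-glucose, had 0.36 without TMX (adjusted p = 0.134) and rose by 0.82 with TMX (adjusted p = 0.000256). Leaving out 13c and 15c, P2ry14 rose without TMX too, by 0.69 (adjusted p = 0.0023).

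Of 13 regulators of microglial identity, transcription factors and genes of the TGF-beta pathway, 10 were measured. Without TMX 6 rose and 2 fell, and with TMX 5 rose and 1 fell. Spi1, which encodes PU.1, rose by 0.52 and 0.56 (adjusted p = 0.00117 and 0.00017), and Runx1 rose by 0.88 and 1.25. Smad3, which carries the TGF-beta signal, rose by 0.60 and 0.57, and the ligand gene Tgfb1 by 0.57 and 0.86, the former being 0.92 without 13c and 15c. Nrros, whose product presents TGF-beta to microglia, rose by 0.38 and 0.47. The receptor gene Tgfbr1 fell by 0.34 (adjusted p = 0.00648) and by 0.64 (adjusted p = 1.81e-06), and Tgfb2 fell by 0.85 without TMX and had -0.30 with TMX, which did not pass. Irf8 rose by 0.39 without TMX and had 0.19 with TMX (adjusted p = 0.163), and Mef2a and Maf passed in neither comparison.

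A list of 20 other genes known from resting microglia of the mouse, which shares Tgfbr1 and Nrros with the regulators and of which 15 were measured, moved in both directions. Without TMX 5 fell and 3 rose, with a median log2 difference of -0.05, where 17.8% of all transcripts fell and 12.8% rose. With TMX 4 fell and 3 rose, with a median of -0.06, where 19.7% of all transcripts fell and 14.3% rose. The counts of this list are thus not far from these shares. Gpr165, which encodes an orphan receptor, fell by 0.87 (adjusted p = 2.51e-05) and by 0.97 (adjusted p = 1.33e-06). The fructose transporter gene Slc2a5 fell by 0.60 (adjusted p = 0.000907) and by 0.33 (adjusted p = 0.0351), and the leukotriene synthase gene Ltc4s fell by 0.39 without TMX and had -0.08 with TMX. In the other direction, Ecscr, known also from endothelium and named only through the study's lists of changed genes, rose by 1.00 and 0.80.

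Genes that microglia share with other macrophages mostly rose in the same samples in which most of the 9 genes fell. Of 15 such genes, 11 rose and 2 fell without TMX, and 11 rose and 1 fell with TMX, with median log2 differences of 0.92 and 0.91. Itgam, which encodes CD11b, rose by 1.59 (adjusted p = 4.21e-10), C1qb and C1qc, which encode chains of complement C1q, rose by 1.29 and 1.15, and Ptprc, which encodes CD45, rose by 1.39, all without TMX. Aif1, which encodes Iba1, a marker used to stain all microglia and macrophages, rose by 0.92 without TMX and by 0.91 with TMX. The genes of this list that fell were Ctss, a lysosomal protease gene, with -0.31 (-0.20 without 13c and 15c, adjusted p = 0.151), and the tetraspanin gene Cd37 with -0.98 (-0.60 without 13c and 15c), which also fell with TMX by 0.59; Ctss was named after its values were seen. The mean log2 signal of the list ranged from 6.58 to 6.97 over the sham rats and from 7.23 to 7.66 over the SCI rats.

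Of 15 genes of responding microglia known from mice, 10 rose and 2 fell without TMX (median 0.74) and 11 rose and 2 fell with TMX (median 0.56). The glycoprotein gene Gpnmb rose by 2.42, the galectin gene Lgals3 by 2.50 and the receptor kinase gene Axl by 1.11 without TMX. Igf1, which encodes a growth factor, fell by 1.27 without TMX and by 1.64 with TMX, and Apoe fell by 0.25 and 0.22, both being named after their values were seen.

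Genes listed as markers of cells from outside the cord parenchyma also rose. Which cells carried these RNAs was not tested. Of 15 monocyte and macrophage genes 13 were measured, and 10 of them rose without TMX and 12 with TMX, with 0 falling. The scavenger receptor gene Msr1 rose by 3.42, Cd14 by 3.09, Plac8 by 2.30 and Vcan by 1.04, and Ccr2, the chemokine receptor gene of inflammatory monocytes, rose by 1.58 without TMX and 0.78 with TMX. The mean log2 signal of this list ranged from 5.39 to 5.61 over the sham rats and from 6.63 to 7.20 over the SCI rats. Of 7 measured genes of meningeal and perivascular macrophages, 6 rose without TMX and 5 with TMX, among them Cd163 by 1.73 and 1.68 and Lyve1 by 1.03 and 1.01, and the list ranged from 4.35 to 4.97 in sham rats and from 5.21 to 5.87 in SCI rats. Of 11 measured neutrophil genes, 6 and 7 rose, with S100a9 at 2.57 and 2.56, and all 6 measured genes of red blood cells rose in both comparisons (5 of 6 without TMX when 13c and 15c were left out). The lymphocyte list gave 1 gene higher and 1 lower of 7 without TMX, the latter being Cd4 at -1.60, which in rats is also carried by microglia and macrophages. The part of these cells in the differences of the 9 genes was not tested.

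Markers of other resident cells fell in part. Of 9 measured astrocyte genes 6 fell in each comparison, with medians of -0.45 and -0.49. The connexin gene Gjb6 fell by 1.67 in each comparison, which is close to the fall of Gpr34, and the water channel gene Aqp4 fell by 0.70 and 0.80. Of 10 neuronal genes 9 and 10 fell, with Rbfox3, which encodes NeuN, at -0.78 and -0.61, and medians of -0.53 and -0.49. Of 9 measured oligodendrocyte genes 5 and 6 fell, among them Ugt8, an enzyme gene of myelin lipid synthesis, by 1.06 and 1.57, and the myelin gene Mog by 0.66 and 0.72, whereas the myelin gene Mbp at -0.10 and -0.06 did not pass. Of 9 measured endothelial genes 1 and 2 fell and 3 rose in each comparison. Pecam1, which encodes CD31, rose by 1.30 and 1.27, the efflux pump gene Abcb1a fell by 0.90 and 1.16, and Cldn5, a tight junction gene, had -0.04 and -0.16, which did not pass.

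**Figure D3:**
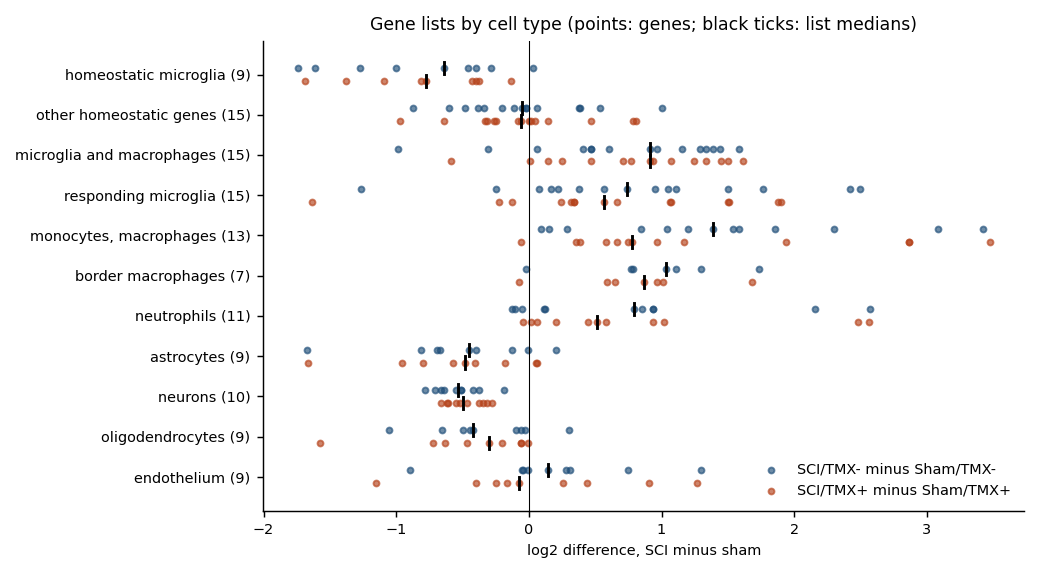
Log2 differences between SCI and sham (horizontal axis) for 11 gene lists by cell type, with 1 point per gene, black ticks for list medians and the number of measured genes in brackets. The 9 homeostatic genes of microglia lie at or below 0 but for Olfml3 without TMX, while most genes shared by microglia and macrophages lie above 0.

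Within a group, most of the 9 genes varied together from rat to rat. Deviations from the 4 group means were correlated over the 22 arrays, as a description, since all genes of an array share its RNA and its normalization. The median Pearson r over the 36 pairs of genes was 0.309, and 28 pairs lay above 0. The closest pairs were P2ry12 with Selplg (r = 0.759), P2ry12 with Gpr34 (0.75), Gpr34 with Csf1r (0.726) and P2ry12 with P2ry13 (0.725). Without 13c and 15c these were 0.638, 0.681, 0.644 and 0.629.

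Over all 22 arrays Tmem119 had negative values for all 8 pairs, from -0.0539 with Sall1 to -0.483 with P2ry12, and several of these lean on 13c and 15c. Without 13c and 15c the value of Tmem119 was -0.341 with P2ry12, -0.267 with Gpr34 and -0.116 with P2ry13. Those with Csf1r, Selplg, Cx3cr1 and Olfml3 then lay between -0.0957 and -0.0368, and that with Sall1 was 0.0168. Among the sham arrays alone Tmem119 had 0.607 with Sall1 and -0.168 with P2ry12, and among the SCI arrays alone -0.32 and -0.748. Csf1r, whose group means differed little, was among the genes that moved most closely with Gpr34 and Selplg (r = 0.698). Among single rats, 15c had the lowest mean standardized deviation of the 9 genes (-1.46), followed by 3a of Sham/TMX- (-0.902), and 6a of Sham/TMX- had the highest (1.03).

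**Figure D4:**
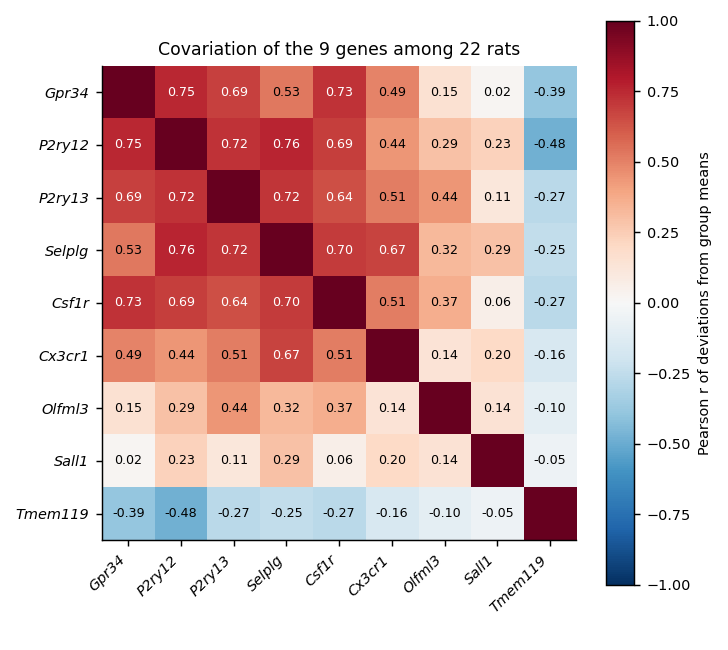
Pearson correlations over 22 arrays of the deviations from group means, for each pair of the 9 genes (both axes), with red for positive and blue for negative values. Gpr34, P2ry12, P2ry13, Selplg, Csf1r and Cx3cr1 share positive values, and the row of Tmem119 is negative throughout.

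The 10 named transcripts whose deviations followed the mean of the 9 genes most closely over the 22 arrays were Tsku (r = 0.907), Nol3 (0.834), Pld4 (0.832), Man1c1 (0.818), Fli1 (0.814), Gjb1 (0.811), Cd37 (0.804), Qars1 (0.792), Dap (0.784) and Ifitm2 (0.78). Without 13c and 15c, Tsku had 0.859 and Ifitm2, the lowest of the 10, had 0.647. Their differences after SCI did not run as one. Cd37, Man1c1 and Gjb1 fell in both comparisons, by 0.98, 0.51 and 0.55 without TMX, while Nol3 and Ifitm2 rose in both, by 0.33 and 0.83 without TMX. Pld4, with -0.0946 without TMX and 0.245 with TMX, passed in neither. The same held for Fli1, which encodes a transcription factor of blood and endothelial cells, and Qars1, which encodes a tRNA synthetase.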

How the data were processed

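Total RNA of 22 cord samples was labelled and hybridised to Clariom S arrays. The values deposited by the authors are log2 signals for 23188 transcripts, made from the scans by RMA (background correction, quantile normalization and summary of probes, oligo 1.56), which draws the arrays to a common distribution and compresses differences of dim transcripts. The genome build of the array is not given in the sources used here. The platform annotation named 15049 transcripts and the accessions in the study's tables a further 141.

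From these values, 4 group means were fitted to all 22 arrays with limma 3.58.1 (lmFit and eBayes, 18 residual and 6.99 prior degrees of freedom), and p-values were adjusted by Benjamini-Hochberg over all transcripts. Thresholds followed the study's methods. Pairs of genes were compared by exact two-sided permutation tests over all divisions of the rats, with the Benjamini-Hochberg adjustment from scipy 1.17.1. The fitting and pair scripts were tested on simulated data first. The p-values measure the spread between rats.

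The 9 genes, the lists and the rules were chosen with earlier results of these data known. Named genes were the 9, the ligands, receptors and regulators listed, the 4 genes of each further list with the largest moderated t and its defining markers, and the 10 closest in covariation. Alternatives covered moderation, filtering, normalization, array weights, the replicate block, the samples and transcripts in the fit, thresholds and leaving out rats.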

Additional observations from a re-analysis of the deposited data

How the results depend on the processing

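No called difference of the 9 genes changed its sign under any alternative. Among uncalled ones, leaving out 13c and 15c turned 4 of 9 signs for TMX in SCI and 5 of 9 for the interaction. The counts of the gene lists without these rats were an alternative chosen after seeing the data. Without a minimum fold change, 7 and 7 of the 9 genes were called as changed after SCI without and with TMX, in place of 4 and 3, and with the treat test of limma at a log2 difference of 0.5, 3 and 3. With an unadjusted p under 0.05 and no minimum, 1 gene, Olfml3, was called for TMX in sham rats in place of 0, and leaving out 1 rat at a time gave 0 to 1 there. Olfml3 was called without 4a (0.71), 6a (0.76), 19d (0.71) or 22d (0.77).

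P2ry12 lies at the minimum log2 difference without TMX. It was -0.99 with array medians subtracted, -0.97 after a further quantile normalization and -0.82 with array weights, and leaving out 1 rat at a time gave -1.12 to -0.82, short of 1 without 1a, 6a, 13c or 15c. By adjusted p alone, Csf1r passed without TMX with a trended and robust variance (adjusted p = 0.0436), among the brighter transcripts (0.0345) and without 3a (0.0318), 5a (0.0374) or 16c (0.0272). Olfml3 passed as lower with TMX under array weights (0.0342), among the brighter transcripts (0.0442) and without 8b (0.0281), 19d (0.0488) or 22d (0.0172). Leaving out the dimmer transcripts kept 11594 and dropped Tmem119. Array weights ran from 0.29 (15c) to 1.46.

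The replicate numbers follow the order of the rats within a group and are not part of the sample titles, which give animal codes. They were not taken to pair rats, and deviations of same-numbered rats correlated between -0.207 and 0.226 over 31 pairs. With the replicate block, the numbers of the 9 genes called were 4, 3, 0, 0 and 0, as without it, for SCI without TMX, SCI with TMX, TMX in sham, TMX in SCI and the interaction. Without 13c and 15c, 40 of 72 pair tests passed in place of 46, and leaving out 1 rat at a time gave 44 to 47. The choice among several transcripts of a gene did not arise, since each had 1, and the fit to only the groups compared was not run for the interaction, which needs all 4.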
